A study of Mus musculus with 12 samples.

Results

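Sialyltransferases and the other glycosyltransferases of the Golgi build the sugar chains that cover T cell surface proteins and lipids. The genes described here are the protein-coding mouse genes whose symbols begin with St3gal, St6gal, St8sia, B3gnt, B4gal, Gcnt or Mgat, or with Galnt or Fut followed by a digit. In the GENCODE M21 annotation of GRCm38 this rule gave 81 gene identifiers with 80 symbols, since St6galnac2 has 2 identifiers. They are 81 of the 55401 gene rows, and of the 21897 protein-coding rows, in the count tables. No measured value entered the rule.

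The libraries are bulk RNA-seq of OT-I CD8 T cells, whose transgenic receptor recognises an ovalbumin peptide, in 4 groups of 3 libraries. Day 14 and day 4 libraries, which the labels call exhausted, hold CD44+ OT-I cells that were transferred into C57Bl6/J mice bearing B78ChOVA melanomas and sorted from the tumours 14 or 4 days later. Effector libraries hold OT-I cells stimulated in vitro with antigen for 5 days, and naive libraries hold OT-I cells from the lymph nodes of tumour-free OT-I mice. B78ChOVA melanoma cells express mCherry and ovalbumin. Every group carries the OT-I receptor, no other genotype or drug is given, and the age of the mice is not given in the labels. The labels do not say which libraries come from separate animals or cultures, so p-values measure the spread between these libraries, which may be technical. In bulk RNA, fewer cells of a type and less RNA per cell cannot be told apart.

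Mucin-type O-glycans start when a Galnt enzyme adds N-acetylgalactosamine (GalNAc) to serine or threonine. C1galt1 extends this to core 1, which can then be capped with sialic acid by St3gal1 or branched to core 2 by Gcnt1. N-glycans are branched by the Mgat enzymes, extended by B4galt and B3gnt enzymes, and capped by sialyl- and fucosyltransferases. In CD8 T cells, the balance between core 1 sialylation and core 2 branching is a textbook difference between resting and activated cells, and core 2 branches carry selectin ligands and galectin ligands.

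Gene counts per library ranged from 11937053 to 17094006. Of the 81 genes, 74 had a count in at least 1 library and 57 passed the filter on low counts, out of 16426 genes that passed in all. A gene that is high in a single group can pass the filter through that group, so counts over the 57 describe the tested genes and support nothing by themselves. Levels of one gene across libraries are given as CPM, which are counts scaled to library size with TMM factors. Levels of different genes are compared only as TPM, which also divides by exonic length. The 8 T cell markers (Cd3d, Cd3e, Cd3g, Cd8a, Cd8b1, Trac, Lck and Thy1) all had counts in every group and summed to 4205, 4375 and 4308 CPM at day 14, 3049, 3269.6 and 3651 CPM at day 4, 6073, 5649 and 6091 CPM in effector cells and 4538, 4676 and 5047 CPM in naive cells. Fold changes are on the log2 scale with SE, and adjusted p-values come from edgeR's quasi-likelihood test with Benjamini-Hochberg adjustment over all 16426 genes.

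Most tested genes of the group differed among the 4 states, most often between tumour groups and the other groups. The test across the 4 groups called 48 of 57 (84.2%, against 74.8% of all genes tested) at an adjusted p under 0.05 in edgeR's quasi-likelihood test. Between day 14 and effector libraries 44 of 57 were called, 25 higher and 19 lower at day 14. Among all genes tested 61.0% were called in that comparison, 32.6% higher and 28.4% lower. Between day 4 and effector libraries 46 were called (26 higher, 20 lower), against 61.9% of all genes (32.7% higher, 29.2% lower). Day 14 against naive libraries gave 44 calls (26 higher, 18 lower), where 62.1% of all genes were called (33.6% higher, 28.5% lower). Day 4 against naive libraries gave 39 calls (24 higher, 15 lower), where 62.2% of all genes were called (33.4% higher, 28.8% lower).

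The other 2 comparisons held fewer differences. Effector against naive libraries gave 19 calls (13 higher, 6 lower), against 24.9% of all genes (14.6% higher, 10.4% lower). With library totals in place of TMM factors, the median of all genes in that comparison shifted by -0.12 on the log2 scale and the split became 9 higher and 8 lower. The split of all genes moved to 1544 higher and 2508 lower with library totals, against 2395 higher and 1703 lower with TMM factors. Day 14 against day 4 libraries gave 7 calls (2 higher, 5 lower), against 12.1% of all genes (7.17% higher, 4.91% lower). The share of 12.3% among the 57 is close to that background.

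Taken over both tumour groups, 19 of the 57 (33.3%) were called higher at day 14 and at day 4 than in effector and in naive libraries, against 22.7% of all genes tested. Another 12 (21.1%) were called lower at both tumour times than in effector and in naive libraries, against 17.8%. In 6 genes (10.5%; 6.82% of all genes) day 14, day 4 and effector cells were each called higher than naive, namely Galnt3, Gcnt1, St6galnac3, St6galnac6, St8sia4 and Fut7. In 3 genes (5.26%; 4.21% of all genes) each was called lower than naive, namely Galnt10, Galnt6 and St3gal1. The median log2 fold change of the 57 at day 14 was 0.46 against effector (0.06 over all genes tested) and 0.26 against naive cells (0.04 over all genes). Class counts below are to be read against the shares of all genes called higher and lower in the same comparison, given above. Genes without counts in effector or naive cells lie above the class medians given below also at their lower bounds.

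**Figure D1:**
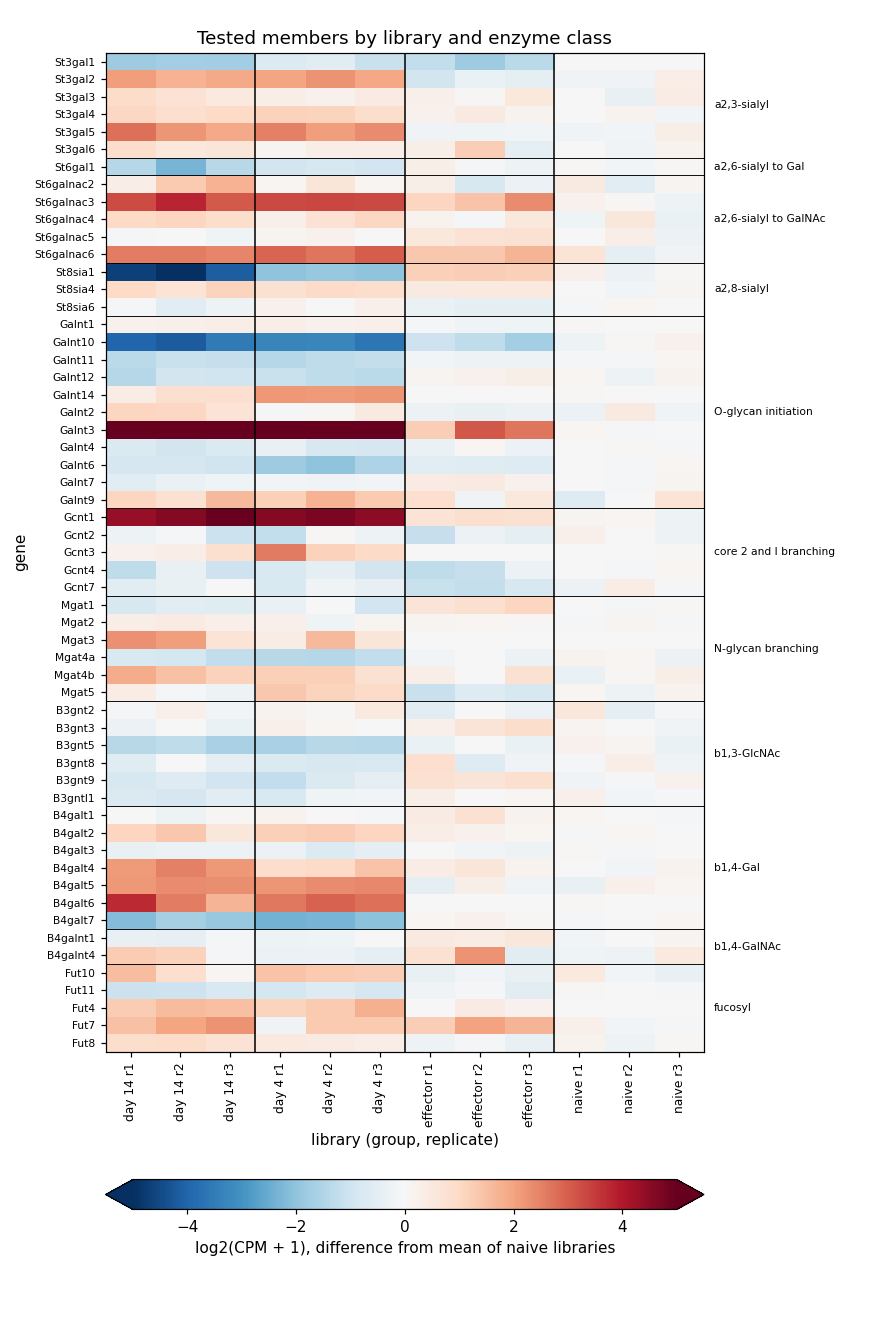
Level of the 57 tested genes in each of the 12 libraries, as log2(CPM + 1) minus the mean of the naive libraries, in rows ordered by enzyme class and columns by group. Colours saturate at 5 in size. Galnt3 and Gcnt1 stand out as high, and Galnt10 and St8sia1 as low, in all 6 tumour libraries.

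Among the enzymes that start O-glycans, Galnt3 was higher and Galnt10 lower in both tumour groups than in effector and naive cells. Of the Galnt genes, 11 of 17 were tested, of which 4 rose and 6 fell at day 14 against effector and 5 rose and 6 fell against naive cells (median log2 fold changes -0.30 and -0.37). Galnt3 had 108, 103 and 121 CPM at day 14, 64.0, 72.2 and 100.4 CPM at day 4, 2.30, 11.01 and 7.97 CPM in effector cells and 0.517, 0.319 and 0.383 CPM in naive cells. The 4 groups were ordered from day 14 down to naive with no overlap between any of them. Day 14 exceeded naive by a log2 fold change of 8.05 ± 0.59, adjusted p = 1.53e-06, and effector by 3.98 ± 0.42, adjusted p = 2.18e-05. Effector exceeded naive as well (log2 fold change 4.07 ± 0.68, adjusted p = 0.00203). Day 14 and day 4 did not differ at the threshold (log2 fold change 0.49 ± 0.35, adjusted p = 0.461).

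Galnt10, which acts preferentially on peptides that already carry GalNAc, had 3.76, 3.12 and 5.33 CPM at day 14, 6.53, 6.67 and 5.08 CPM at day 4, 35.2, 29.8 and 21.4 CPM in effector cells and 60.5, 74.9 and 84.2 CPM in naive cells. Every tumour library lay below every effector library, and every effector library below every naive one. It fell at day 14 against naive (log2 fold change -4.17 ± 0.23, adjusted p = 3.81e-10) and in effector against naive cells (log2 fold change -1.34 ± 0.20, adjusted p = 0.000148).

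Galnt6, the closest relative of Galnt3 in sequence, had 151, 149 and 132 CPM at day 14, 78.2, 65.6 and 90.8 CPM at day 4, 184, 174 and 173 CPM in effector cells and 263, 254 and 287 CPM in naive cells. It was lowest at day 4, and day 14 lay above day 4 without overlap (log2 fold change 0.88 ± 0.11, adjusted p = 5.09e-05) but below naive (log2 fold change -0.90 ± 0.11, adjusted p = 1.79e-06). Its fall at day 14 against effector (log2 fold change -0.30 ± 0.11, adjusted p = 0.0218) was lost without day 14 replicate 1, 2 or 3 or effector replicate 1 or 3, with library totals and with DESeq2 (adjusted p between 0.0522 and 0.118). A gene on the opposite strand, Galnt6os, overlaps it, and the unstranded column kept 84.34% of the reads that the strand columns assign to Galnt6.

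Galnt1, a broadly expressed initiating enzyme, had 211, 217 and 230.1 CPM at day 14, 229, 215 and 217 CPM at day 4, 172, 163 and 157 CPM in effector cells and 191, 179 and 179 CPM in naive cells. Its tumour values lay above those of both other groups, by a log2 fold change of 0.42 ± 0.08, adjusted p = 0.000179 for day 14 over effector. Over naive it was 0.26 ± 0.08, adjusted p = 0.00721, lost with library totals (adjusted p = 0.0506). Galnt11 had 26.7, 31.1 and 30.2 CPM at day 14, 25.2, 27.6 and 29.7 CPM at day 4, 62.3, 56.6 and 58.0 CPM in effector cells and 66.4, 65.5 and 73.9 CPM in naive cells. It fell in both tumour groups (log2 fold change -1.23 ± 0.11, adjusted p = 7.11e-08 for day 14 against naive).

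Galnt12 and Galnt4, which also prefer glycopeptides, fell in both tumour groups against naive cells. Galnt12 had 11.5, 16.6 and 15.7 CPM at day 14, 14.5, 12.9 and 12.4 CPM at day 4, 36.1, 38.4 and 40.5 CPM in effector cells and 35.3, 26.8 and 36.7 CPM in naive cells, with a day 14 against naive log2 fold change of -1.17 ± 0.16, adjusted p = 1.15e-05. Galnt4 had 10.8, 9.05 and 10.6 CPM at day 14, 13.9, 10.03 and 9.82 CPM at day 4, 14.3, 19.6 and 14.9 CPM in effector cells and 18.3, 18.8 and 17.6 CPM in naive cells, and the same comparison gave -0.85 ± 0.19, adjusted p = 0.000838. In both genes each day 14 library lay below each effector and each naive library.

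Galnt7, of the same preference, had 47.5, 54.6 and 60.4 CPM at day 14, 63.5, 62.2 and 63.9 CPM at day 4, 94.0, 94.4 and 82.0 CPM in effector cells and 68.0, 65.0 and 76.4 CPM in naive cells. At day 4 it had no call against naive (log2 fold change -0.14 ± 0.11, adjusted p = 0.251). Day 14 was below effector (log2 fold change -0.73 ± 0.11, adjusted p = 1.64e-05) and below naive (log2 fold change -0.37 ± 0.11, adjusted p = 0.00653), the naive comparison being lost without naive replicate 3 (adjusted p = 0.0518). Its rise in effector over naive cells (log2 fold change 0.37 ± 0.11, adjusted p = 0.0169) was lost without effector replicate 1 or 2 or naive replicate 1 or 2 and with library totals (adjusted p between 0.0522 and 0.115).

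Galnt14, Galnt9 and Galnt2 were called at low levels. Galnt14 summed to 32 counts over the day 14 libraries and 162 over the day 4 libraries, against 0 in effector and 1 in naive libraries. That is at least 45.9-fold higher at day 4 than in effector cells, taking 3 counts summed over a group as the floor, and day 14 was below day 4 (log2 fold change -2.45 ± 0.57, adjusted p = 0.0103). Galnt9 averaged 4.69 ± 1.73 CPM at day 14, 5.66 ± 1.37 at day 4, 2.40 ± 1.13 in effector and 1.67 ± 1.21 in naive libraries. It was higher at day 4 than in naive cells (log2 fold change 1.76 ± 0.50, adjusted p = 0.00554; 2.5005, adjusted p = 0.00104 without naive replicate 3), and its calls at day 14 against naive and at day 4 against effector were lost without day 14 replicate 3 or naive replicate 1 or 2 (adjusted p between 0.0529 and 0.0714) and without day 4 replicate 2 or effector replicate 2 or 3 (adjusted p between 0.059 and 0.127). Galnt2 had at most 1.72 CPM, but the gene shares 3854 of its 4282 exonic bases with a gene on the same strand (Gm20388), so its level is uncertain.

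The core 2 gene Gcnt1 was higher in both tumour groups than in effector and naive cells. Of the Gcnt genes, 5 of 5 were tested, of which 3 rose and 0 fell at day 14 against effector and 2 rose and 0 fell against naive cells (median log2 fold changes 1.26 and -0.40). Gcnt1, the core 2 N-acetylglucosaminyltransferase of leukocytes, had 26.8, 32.4 and 40.7 CPM at day 14, 32.1, 34.7 and 29.7 CPM at day 4, 1.22, 1.38 and 1.32 CPM in effector cells and 0.517, 0.478 and 0.153 CPM in naive cells. All 6 tumour libraries lay above all effector and naive libraries, and effector lay above naive without overlap. Day 14 exceeded naive by a log2 fold change of 6.41 ± 0.29, adjusted p = 2.55e-11 and effector by 4.67 ± 0.24, adjusted p = 1.52e-10. Day 14 and day 4 overlapped (log2 fold change 0.05 ± 0.18, adjusted p = 0.923). Effector exceeded naive (log2 fold change 1.74 ± 0.37, adjusted p = 0.00245), a call that was lost with the compared groups fitted alone (adjusted p = 0.0553).

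The other Gcnt genes stayed under 6 CPM in every library. Gcnt3, which makes core 2 and core 4 branches, summed to 21 counts at day 14 and 108 at day 4, against 0 in effector and 1 in naive libraries. Of the day 4 level, 5.28 CPM came from replicate 1, against 1.26 and 1.002 CPM in the other libraries. Gcnt7 was lower in effector than in naive cells (log2 fold change -1.66 ± 0.43, adjusted p = 0.0103), a call lost without naive replicate 2 (adjusted p = 0.0567). It was higher at day 14 than in effector cells (log2 fold change 1.26 ± 0.43, adjusted p = 0.0189), a call lost without day 14 replicate 3 or effector replicate 1 or 2 (adjusted p between 0.0546 and 0.0834). Gcnt2 and Gcnt4 had no call in any comparison.

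The genes of core 1 synthesis were not called. C1galt1, the core 1 galactosyltransferase, averaged 99.98 ± 4.80 CPM at day 14, 93.4 ± 11.2 at day 4, 99.9 ± 7.27 in effector and 109 ± 18.7 in naive libraries. Its chaperone C1galt1c1 averaged 11.2 ± 1.68 CPM at day 14, 11.98 ± 2.93 at day 4, 10.8 ± 1.05 in effector and 9.46 ± 2.22 in naive libraries. Neither gene was called in any of the 6 comparisons, which does not show that they did not differ. Both were picked for mention after their values were seen.

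The promoters of 4 genes are shown. They were picked by log2 fold change at day 14 against naive, among genes given with full values that matched a window. Galnt3 and Gcnt1 had the highest values and St8sia1 and Galnt10 the lowest. Other genes of the group also separated all 6 tumour libraries from the other 6. The sequences are RefSeq windows of 300 bases (GRCm38.p6), from 250 before to 50 after the RefSeq start, 5′ to 3′ on the gene's strand. For Gcnt1, St8sia1 and Galnt10 that start is the GENCODE gene start. For Galnt3 it lies 201 bases inside the GENCODE gene, so most of that window is within the gene. By GENCODE M21, Galnt3 spans chr2:66082766-66124994, Gcnt1 chr19:17326141-17372844, St8sia1 chr6:142821545-142964452 and Galnt10 chr11:57645442-57787514. Capitals mark GC-box letters (GGGCGG) on either strand.

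Galnt3, chr2:66124744-66125043, minus strand: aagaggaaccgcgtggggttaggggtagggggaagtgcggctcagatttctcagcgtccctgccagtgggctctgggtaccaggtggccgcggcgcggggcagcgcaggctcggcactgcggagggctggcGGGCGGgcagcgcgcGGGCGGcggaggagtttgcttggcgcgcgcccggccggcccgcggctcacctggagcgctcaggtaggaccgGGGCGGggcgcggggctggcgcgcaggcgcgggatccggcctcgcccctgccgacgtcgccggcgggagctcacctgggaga

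Gcnt1, chr19:17372795-17373094, minus strand: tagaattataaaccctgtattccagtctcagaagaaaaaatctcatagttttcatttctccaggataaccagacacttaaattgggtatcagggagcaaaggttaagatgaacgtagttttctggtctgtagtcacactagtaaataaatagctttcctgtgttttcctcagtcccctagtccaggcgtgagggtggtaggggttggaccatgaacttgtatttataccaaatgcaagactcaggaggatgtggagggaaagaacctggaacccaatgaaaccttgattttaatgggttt

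St8sia1, chr6:142964403-142964702, minus strand: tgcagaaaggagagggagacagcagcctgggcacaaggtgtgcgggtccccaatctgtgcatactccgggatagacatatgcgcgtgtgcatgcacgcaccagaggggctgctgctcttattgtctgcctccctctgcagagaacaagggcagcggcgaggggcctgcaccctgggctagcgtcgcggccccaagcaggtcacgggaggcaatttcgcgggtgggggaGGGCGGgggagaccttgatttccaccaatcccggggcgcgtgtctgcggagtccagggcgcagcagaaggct

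Galnt10, chr11:57645192-57645491, plus strand: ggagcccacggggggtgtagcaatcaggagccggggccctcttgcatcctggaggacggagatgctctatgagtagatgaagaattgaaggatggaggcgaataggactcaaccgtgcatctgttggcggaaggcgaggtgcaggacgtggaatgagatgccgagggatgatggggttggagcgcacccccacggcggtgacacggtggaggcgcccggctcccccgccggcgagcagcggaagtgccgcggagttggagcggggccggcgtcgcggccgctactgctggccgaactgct

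The Galnt3 window was 76.7% G and C and held 41 CpG, and the GC-box letters occurred 3 times. The Gcnt1 window, at 40.7% G and C with 2 CpG, held none of the motifs searched. Gcnt1 has 3 windows in the table and the one at the annotated gene start is shown. St8sia1 (64.7% G and C, 19 CpG) held the letters once, and Galnt10 (66.0% G and C, 28 CpG) held none. The letters were thus in 1 of the 2 genes that were higher in the tumour groups and in 1 of the 2 that were lower.

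Motifs were searched on both strands as TGANTCA (AP-1), TGTGGT (RUNX), TCACACC (T-box), CTTTGA (TCF/LEF) and GGGCGG (GC box). The end of TGANTCA and the start of TCACACC can share bases. Of the 81 genes, 58 matched a window by symbol, and the window nearest the annotated start was taken for each. The table holds more than 1 window for some genes, so its shares are not like for like with those of the 58. GC-box letters were present in 43 of these 58 (74.1%), against 35.7% of all 32851 windows of the table, which cover genes of every kind. They were present in 10 of 13 matched genes that were higher in both tumour groups and in 7 of 9 that were lower. AP-1 letters were found in 2 of 58 (7.81% of all windows), RUNX letters in 7 (16.8%), T-box letters in 1 (3.98%) and TCF/LEF letters in 7 (16.0%). A match describes letters in the window, not a site.

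Among the alpha-2,3-sialyltransferases, the core 1 enzyme St3gal1 was lower in both tumour groups than in naive cells, and St3gal5 and St3gal2 were higher than in effector and naive cells. Of the class, 6 of 6 were tested, of which 3 rose and 0 fell at day 14 against effector and 4 rose and 1 fell against naive cells (median log2 fold changes 0.60 and 0.91). St3gal1, whose loss in the mouse depletes peripheral CD8 T cells, had 62.5, 66.6 and 64.2 CPM at day 14, 135, 146 and 100.2 CPM at day 4, 92.9, 62.7 and 84.9 CPM in effector cells and 212, 219.5 and 221 CPM in naive cells. All naive libraries lay above all others, and all day 14 libraries below all day 4 libraries. Day 14 fell below naive (log2 fold change -1.75 ± 0.14, adjusted p = 3.72e-08) and below day 4 (log2 fold change -0.98 ± 0.14, adjusted p = 0.000246), and effector fell below naive (log2 fold change -1.44 ± 0.14, adjusted p = 3.3e-06). Against effector cells, day 4 was higher without overlap (log2 fold change 0.66 ± 0.14, adjusted p = 0.000675), and day 14 overlapped them (log2 fold change -0.32 ± 0.14, adjusted p = 0.062).

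St3gal2, which sialylates core 1 glycans and gangliosides, had 13.0, 9.82 and 10.96 CPM at day 14, 11.6, 14.2 and 11.6 CPM at day 4, 0.719, 1.55 and 1.32 CPM in effector cells and 1.85, 1.91 and 3.14 CPM in naive cells. The tumour libraries formed one range above all others, with a day 14 over effector log2 fold change of 3.24 ± 0.31, adjusted p = 2.06e-07. A lower level in effector than in naive cells (log2 fold change -0.96 ± 0.33, adjusted p = 0.046) was lost without day 14 replicate 3, day 4 replicate 1, 2 or 3, effector replicate 1 or 3 or naive replicate 2 or 3, with a replicate block and with the compared groups fitted alone (adjusted p between 0.0501 and 0.207). St3gal4, an enzyme of selectin ligands on N-acetyllactosamine, had 21.6, 18.9 and 20.8 CPM at day 14, 23.5, 22.8 and 19.5 CPM at day 4, 11.9, 14.1 and 11.6 CPM in effector cells and 9.83, 11.5 and 9.03 CPM in naive cells. Its tumour values were all above the rest, by 0.71 ± 0.16, adjusted p = 0.00111 for day 14 over effector on the log2 scale.

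St3gal5 makes the ganglioside GM3. It averaged 6.26 ± 2.26 CPM at day 14 and 6.30 ± 1.09 at day 4, against 0.285 ± 0.0258 in effector and 0.460 ± 0.265 in naive libraries, and rose at day 14 over effector (log2 fold change 4.41 ± 0.47, adjusted p = 5.49e-07). St3gal6 was not called in any comparison and spread widely among effector libraries, at 37.2, 72.9 and 22.0 CPM. St3gal3 passed the threshold only at day 14 against naive (log2 fold change 0.81 ± 0.28, adjusted p = 0.0211) and lost it without day 14 replicate 1 or naive replicate 1 or 2 (adjusted p between 0.0536 and 0.0997).

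The ratio of Gcnt1 to St3gal1, both divided by exonic length, sets 2 of the enzymes that act on core 1 side by side. It was 0.510, 0.578 and 0.754 at day 14, 0.284, 0.284 and 0.353 at day 4, 0.0157, 0.0261 and 0.0184 in effector and 0.00291, 0.00259 and 0.000823 in naive libraries. The 4 groups did not overlap, from the highest at day 14 to the lowest in naive cells. The ratio restates the levels of these 2 genes given above and is no further result. St3gal2, which also sialylates core 1 and was higher in both tumour groups, is not part of it.

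St6gal1, which adds sialic acid to galactose on N-glycans and makes ligands of CD22, had 70.8, 37.5 and 72.5 CPM at day 14, 101, 109 and 97.8 CPM at day 4, 233, 179 and 161 CPM in effector cells and 201, 176 and 200.01 CPM in naive cells. All 6 tumour libraries lay below the other 6. It fell at day 14 against naive (log2 fold change -1.67 ± 0.22, adjusted p = 4.56e-05) and against effector (log2 fold change -1.67 ± 0.22, adjusted p = 4.88e-05). A further fall at day 14 against day 4 (log2 fold change -0.77 ± 0.22, adjusted p = 0.0411) was lost without day 4 replicate 1, 2 or 3, effector replicate 2 or naive replicate 1, 2 or 3 and with the compared groups fitted alone (adjusted p between 0.0514 and 0.112).

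Among the enzymes that add alpha-2,6-sialic acid to GalNAc, St6galnac3, St6galnac4 and St6galnac6 rose at day 14. Of the 7 identifiers 5 were tested. Leaving out St6galnac2, whose counts are in doubt, 3 of 4 rose and 1 fell at day 14 against effector, and 3 rose and none fell against naive cells. St6galnac3 had 38.5, 56.6 and 33.8 CPM at day 14, 39.4, 40.7 and 39.8 CPM at day 4, 7.69, 10.2 and 20.3 CPM in effector cells and 3.84, 3.27 and 2.45 CPM in naive cells, and tumour, effector and naive libraries formed 3 separate ranges (log2 fold change 3.75 ± 0.35, adjusted p = 1e-06 for day 14 against naive; 1.997 ± 0.35, adjusted p = 0.00111 for effector against naive). St6galnac6, which acts on gangliosides, had 14.1, 13.8 and 12.8 CPM at day 14, 18.04, 15.3 and 19.6 CPM at day 4, 5.54, 5.42 and 7.35 CPM in effector cells and 3.10, 0.796 and 1.22 CPM in naive cells. It followed the same order, with day 14 over naive at 2.97 ± 0.34, adjusted p = 1.16e-06, and 3.735, adjusted p = 5.41e-08 without naive replicate 1. St6galnac4, which makes disialyl core 1, had 43.1, 45.4 and 39.3 CPM at day 14, 25.0, 35.4 and 43.4 CPM at day 4, 23.9, 20.0 and 30.4 CPM in effector cells and 17.8, 31.1 and 16.5 CPM in naive cells. Day 14 lay above all naive and effector libraries (log2 fold change 0.97 ± 0.25, adjusted p = 0.00355 against naive), the call over effector being lost without effector replicate 2 (adjusted p = 0.0543). At day 4 against naive the call was lost without day 4 replicate 2 or 3 or naive replicate 1 or 3 and with the compared groups fitted alone (adjusted p between 0.0507 and 0.123).

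At lower levels, St6galnac5 was lower at day 14 than in effector cells (log2 fold change -2.49 ± 0.86, adjusted p = 0.0194), a call lost without day 14 replicate 3 or effector replicate 3, with no filter on low counts and with the strand columns summed (adjusted p between 0.0524 and 0.0936). St6galnac2 has 2 overlapping identifiers and an opposite-strand neighbour, and the unstranded column kept 32.62% of its stranded reads, so no value is given for it.

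Within the alpha-2,8 class, St8sia1 fell and St8sia4 rose in the tumour groups. Of the class, 3 of 6 were tested, of which 1 rose and 1 fell at day 14 against effector and 1 rose and 1 fell against naive cells (median log2 fold changes 0.46 and -0.87). St8sia1, the GD3 synthase, had 4.16, 2.29 and 6.54 CPM at day 14, 32.0, 34.1 and 31.9 CPM at day 4, 300.4, 311 and 296 CPM in effector cells and 154, 106 and 135 CPM in naive cells. The 4 groups did not overlap: effector was highest, then naive, then day 4, then day 14. Effector exceeded naive (log2 fold change 1.20 ± 0.22, adjusted p = 0.0022), while day 4 fell below naive (log2 fold change -2.02 ± 0.23, adjusted p = 1.33e-05) and day 14 below day 4 (log2 fold change -2.91 ± 0.26, adjusted p = 4.66e-05). Day 14 against effector was the widest fall of any tested gene of the group, at -6.13 ± 0.28, adjusted p = 6.94e-09.

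St8sia4, a polysialyltransferase, had 150.0, 121 and 166 CPM at day 14, 129.8, 146 and 138 CPM at day 4, 104, 108 and 106 CPM in effector cells and 74.7, 69.4 and 82.7 CPM in naive cells. Every effector library lay above every naive one and every tumour library above every effector one, with day 14 over naive at 0.95 ± 0.11, adjusted p = 1.47e-06. Divided by length, St8sia4 made up 93.7% ± 2.06 at day 14, 65.3% ± 0.786 at day 4, 14.0% ± 0.233 in effector and 21.2% ± 2.53 in naive libraries of the alpha-2,8 class. The summed level of the class was 24.4 ± 3.69 TPM at day 14, 32.8 ± 3.57 at day 4, 119 ± 7.06 in effector cells and 60.6 ± 9.17 in naive cells. St8sia2, the other polysialyltransferase, had 11 counts, all at day 4, and St8sia6 stayed under 1 CPM in each library. St8sia6 was higher at day 4 than in effector cells (log2 fold change 1.91 ± 0.73, adjusted p = 0.0311), a call lost without day 4 replicate 1 or 3 or effector replicate 2 or 3, with no filter on low counts, with DESeq2 and with the strand columns summed (adjusted p between 0.0507 and 0.121).

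**Figure D2:**
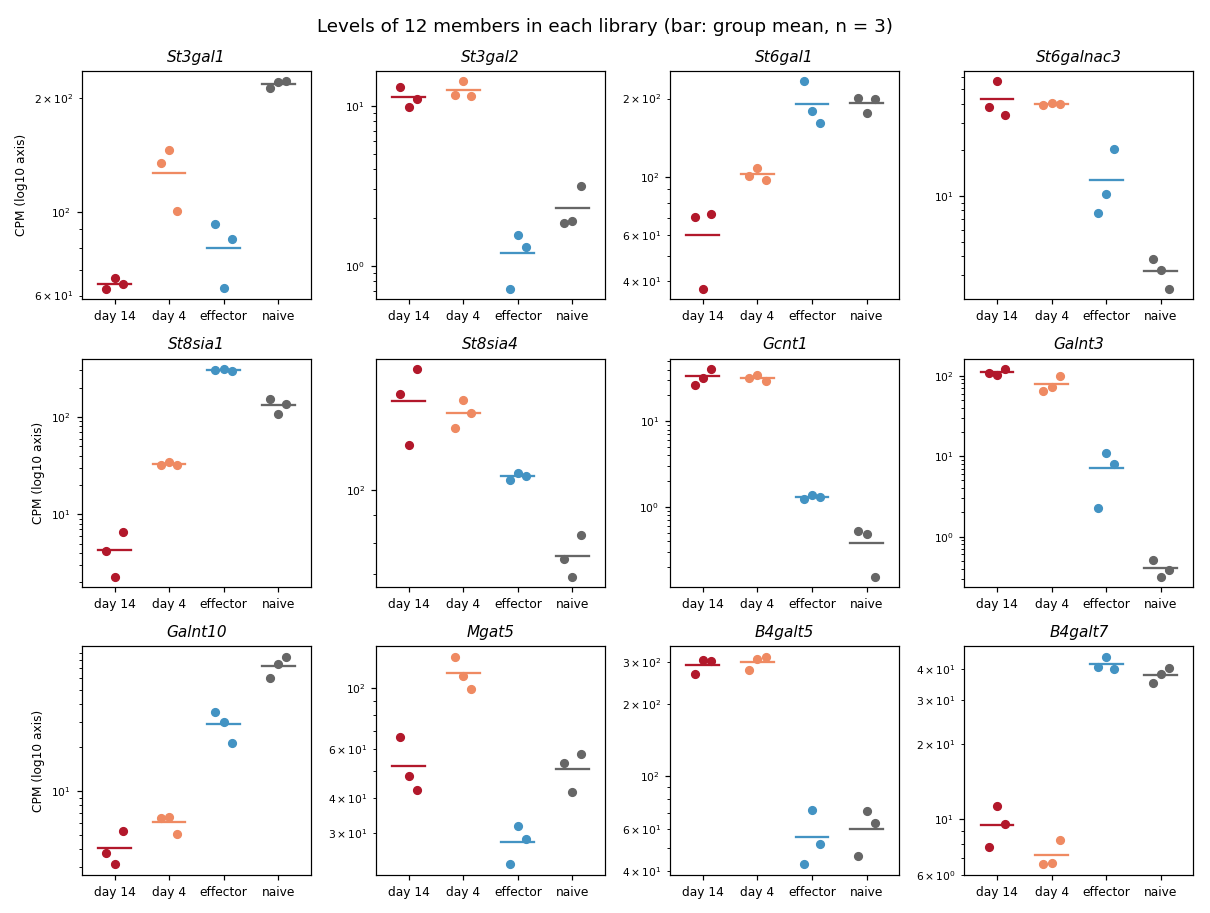
CPM in each library, on a log axis, for 12 genes of the group chosen after their values were seen, with points for libraries and bars for group means (n = 3 libraries a group). Values under 0.05 CPM are drawn at 0.05. Galnt3 and Gcnt1 are above 20 CPM in every tumour library and under 12 CPM in every effector and naive library, and St8sia1 is lower at day 14 than at day 4 and lower at both times than in effector and naive cells.

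Among N-glycan branching genes, Mgat4a fell and Mgat4b rose in the tumour groups, and Mgat5 was highest at day 4. Of the Mgat genes, 6 of 10 were tested, of which 3 rose and 2 fell at day 14 against effector and 3 rose and 2 fell against naive cells (median log2 fold changes 0.58 and 0.19). Mgat5, which adds the beta-1,6 branch that binds galectin-3 and raises the activation threshold of mouse T cells, had 66.6, 48.0 and 42.7 CPM at day 14, 129.6, 111 and 99.2 CPM at day 4, 23.1, 31.8 and 28.5 CPM in effector cells and 53.7, 42.1 and 57.7 CPM in naive cells. Day 4 lay above all other groups, day 14 and naive overlapped, and effector was lowest. Day 4 exceeded naive (log2 fold change 1.15 ± 0.17, adjusted p = 4.35e-05), and day 14 fell below day 4 (log2 fold change -1.11 ± 0.17, adjusted p = 0.000607), so that day 14 against naive came to 0.03 ± 0.17, adjusted p = 0.874. Effector was below naive (log2 fold change -0.88 ± 0.18, adjusted p = 0.00219).

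Mgat4a, which adds a beta-1,4 branch, had 55.5, 50.9 and 40.5 CPM at day 14, 36.1, 34.8 and 40.5 CPM at day 4, 87.4, 95.4 and 78.9 CPM in effector cells and 109, 103 and 78.0 CPM in naive cells. All tumour values lay below the rest (log2 fold change -0.98 ± 0.14, adjusted p = 1.2e-05 for day 14 against naive). Its counterpart Mgat4b rose, averaging 9.33 ± 2.496 CPM at day 14, 6.53 ± 1.26 at day 4, 3.79 ± 1.23 in effector and 2.67 ± 0.767 in naive libraries (log2 fold change 1.80 ± 0.33, adjusted p = 0.000153 for day 14 against naive).

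Mgat1, which opens the path to hybrid and complex N-glycans, had 10.7, 13.1 and 12.6 CPM at day 14, 15.2, 19.4 and 9.62 CPM at day 4, 31.1, 34.4 and 41.9 CPM in effector cells and 19.1, 18.8 and 20.4 CPM in naive cells. Effector libraries lay above all others, and day 14 libraries below the effector and naive ones, with day 14 against effector at -1.56 ± 0.21, adjusted p = 7.2e-06 and effector against naive at 0.88 ± 0.20, adjusted p = 0.00466. Mgat2, the next enzyme, had 33.1, 35.2 and 31.8 CPM at day 14, 31.6, 22.5 and 28.6 CPM at day 4, 29.0, 27.9 and 27.5 CPM in effector cells and 24.8, 29.0 and 25.0 CPM in naive cells. Its single call, day 14 over naive (log2 fold change 0.35 ± 0.14, adjusted p = 0.0383), was lost without day 14 replicate 1 or 2 or naive replicate 1 or 3, with library totals, with no filter on low counts and with a replicate block (adjusted p between 0.0529 and 0.114).

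Mgat3, which adds the bisecting residue, had 3.83, 3.29 and 0.605 CPM at day 14 and 0.293, 2.04 and 0.534 CPM at day 4, and no count in effector or naive libraries. With the same floor it was at least 33.2-fold higher at day 14 than in naive cells.

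Among the beta-1,4-galactosyltransferases, B4galt5 rose and B4galt7 fell in the tumour groups. Of the B4galt genes, 7 of 7 were tested, of which 4 rose and 2 fell at day 14 against effector and 4 rose and 2 fell against naive cells (median log2 fold changes 2.16 and 2.28). B4galt5, a lactosylceramide synthase, had 266, 305 and 303 CPM at day 14, 276, 308 and 315 CPM at day 4, 42.6, 71.9 and 51.7 CPM in effector cells and 46.0, 71.0 and 63.3 CPM in naive cells. Tumour libraries formed one range and the other libraries a second, lower one, with day 14 over effector at 2.40 ± 0.19, adjusted p = 2.12e-07. Effector and naive overlapped (log2 fold change -0.12 ± 0.18, adjusted p = 0.683). B4galt7, which builds the linker of glycosaminoglycans, had 7.72, 11.3 and 9.57 CPM at day 14, 6.60, 6.67 and 8.28 CPM at day 4, 40.6, 44.6 and 39.9 CPM in effector cells and 35.2, 38.2 and 40.3 CPM in naive cells. It fell in both tumour groups without overlap (log2 fold change -2.13 ± 0.16, adjusted p = 9.36e-09 for day 14 against effector).

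B4galt1, the main N-acetyllactosamine synthase, had 259, 222 and 276 CPM at day 14, 295, 257 and 248 CPM at day 4, 347, 448 and 294 CPM in effector cells and 278, 264 and 244 CPM in naive cells. Day 14 fell below effector without overlap (log2 fold change -0.52 ± 0.13, adjusted p = 0.00268), while day 14, day 4 and naive overlapped. Effector over naive (log2 fold change 0.47 ± 0.13, adjusted p = 0.0159) was lost without effector replicate 2 or naive replicate 3 and with library totals (adjusted p between 0.0607 and 0.083). B4galt3 had 18.3, 19.6 and 19.6 CPM at day 14, 19.4, 14.7 and 17.5 CPM at day 4, 23.8, 21.8 and 20.1 CPM in effector cells and 25.6, 22.6 and 24.5 CPM in naive cells. It was lower at day 4 than in naive cells (log2 fold change -0.49 ± 0.14, adjusted p = 0.0071), lost without day 4 replicate 2 (adjusted p = 0.0515), and Ppox overlaps it on the opposite strand.

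B4galt4, B4galt2 and B4galt6 were at low levels and higher in the tumour groups. B4galt4 averaged 4.35 ± 0.815 CPM at day 14, 1.37 ± 0.496 at day 4, 0.451 ± 0.229 in effector and 0.101 ± 0.117 in naive libraries. Its rise at day 14 over day 4 (log2 fold change 1.66 ± 0.50, adjusted p = 0.0372) was lost without day 14 replicate 1, 2 or 3 or day 4 replicate 1 or 2 and with a replicate block (adjusted p between 0.0528 and 0.16). B4galt2 summed to 58 counts at day 14 and 65 at day 4, against 10 in effector and 3 in naive libraries. Its call at day 14 over effector was lost without day 14 replicate 2 (adjusted p = 0.0615).

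B4galt6, the other lactosylceramide synthase, had 12.7, 5.06 and 2.36 CPM at day 14 and 5.35, 6.91 and 5.88 CPM at day 4, with no count in effector and 1 count in naive libraries. Its counts at day 14 were 192, 86 and 39, so replicate 1 held most of them. Over the day 14 libraries it was ordered as melanoma transcripts were, and over the day 4 libraries it was not. The 8 melanoma markers (Pmel, Dct, Tyr, Tyrp1, Mlana, Mitf, Sox10 and Gpnmb) summed to 1998, 843 and 499 CPM at day 14, 1287, 1159 and 856 CPM at day 4, 44.1, 42.5 and 41.4 CPM in effector cells and 31.5, 34.1 and 26.8 CPM in naive cells. All 8 had counts in both tumour groups and in naive libraries, and 3 had none in effector libraries. Per 1000 CPM of these markers, B4galt6 ranged 1.65-fold over the 6 tumour libraries, from 4.16 to 6.87 CPM, whereas in CPM it ranged 5.37-fold.

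Of the 19 genes higher in both tumour groups, 5 had the same order as the melanoma sum over the day 14 libraries: B4galt6, Mgat3, Mgat4b, St3gal5 and St6galnac6. With 3 libraries few orders are possible, and the share of all genes with this order was not computed. The count therefore supports nothing by itself. Over the 6 tumour libraries the melanoma sum itself ranged 4.01-fold. In CPM, Gcnt3 ranged 26.7-fold, Mgat3 13.1-fold, Galnt14 11.3-fold, B4galt6 5.37-fold and B4galt4 5.15-fold. The other genes of the 19 ranged less than the melanoma sum, among them Gcnt1 (1.52-fold), Galnt3 (1.89-fold) and B4galt5 (1.18-fold). The part of melanoma RNA in these results was not tested. Macrophage markers (10 genes) summed to 54.6, 30.3 and 53.0 CPM at day 14 and 29.2, 24.8 and 77.2 CPM at day 4, against at most 6.62 CPM in effector cells and 22.8 CPM in naive cells. Fibroblast markers (5 genes) reached at most 23.1 CPM and B cell markers (4 genes) at most 5.89 CPM in a tumour library. The 4 endothelial markers, of which Pecam1 is also a T cell gene, reached at most 80.8 CPM in a tumour library and 198 CPM in a naive one. The part of these cells was not tested either.

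The beta-1,3-N-acetylglucosaminyltransferases held no gene that rose in the tumour groups. Of the class, 6 of 9 were tested, of which 0 rose and 4 fell at day 14 against effector and 0 rose and 3 fell against naive cells (median log2 fold changes -0.91 and -0.71). B3gnt5, which starts lacto-series glycolipids, had 10.2, 10.9 and 8.36 CPM at day 14, 8.43, 10.2 and 9.89 CPM at day 4, 21.9, 27.7 and 21.8 CPM in effector cells and 32.2, 30.9 and 21.8 CPM in naive cells. All tumour values lay below the rest, with day 14 against naive at -1.53 ± 0.18, adjusted p = 2.43e-06. B3gntl1 had 12.02, 11.3 and 13.9 CPM at day 14, 11.96, 17.8 and 19.0 CPM at day 4, 25.3, 20.6 and 22.5 CPM in effector cells and 25.0, 18.6 and 19.1 CPM in naive cells, and day 14 lay below effector (log2 fold change -0.88 ± 0.19, adjusted p = 0.000739). Tbcd overlaps it on the opposite strand, and the unstranded column kept 66.97% of its stranded reads.

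B3gnt9 had 3.30, 3.70 and 2.79 CPM at day 14, 2.20, 3.54 and 4.34 CPM at day 4, 11.6, 10.6 and 11.9 CPM in effector cells and 5.62, 6.13 and 7.65 CPM in naive cells. Effector libraries were highest and tumour libraries lowest, with day 14 against effector at -1.80 ± 0.27, adjusted p = 2.84e-05. The unstranded column kept 62.54% of its stranded reads, next to D230025D16Rik. B3gnt3, which extends core 1, had 4.89, 6.06 and 4.78 CPM at day 14, 7.70, 6.73 and 6.41 CPM at day 4, 7.55, 10.2 and 12.4 CPM in effector cells and 6.95, 6.37 and 5.43 CPM in naive cells, and day 14 was below effector (log2 fold change -0.93 ± 0.24, adjusted p = 0.00307). The effector over naive calls of B3gnt9 (log2 fold change 0.81 ± 0.26, adjusted p = 0.0322) and B3gnt3 (log2 fold change 0.68 ± 0.24, adjusted p = 0.0483) did not hold throughout. That of B3gnt9 was lost without day 4 replicate 2, effector replicate 1, 2 or 3 or naive replicate 1 or 2, with library totals and with no filter on low counts (adjusted p between 0.0531 and 0.115), and that of B3gnt3 in 17 alternatives (adjusted p between 0.0513 and 0.246).

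B3gnt2, the main polylactosamine enzyme, had no call, but its level is uncertain because it shares 2449 of its 4180 exonic bases with Gm28048 on the same strand. B3gnt8, its partner, was uncertain because Bckdha lies over it on the opposite strand. B3gnt8 was lower at day 4 than in naive cells in the unstranded column (log2 fold change -1.92 ± 0.73, adjusted p = 0.0298), but the sum of the strand columns gave 0.024, adjusted p = 0.951. The class summed to 28.0 ± 2.24 TPM at day 14, 33.0 ± 4.46 at day 4, 60.9 ± 1.44 in effector cells and 55.9 ± 6.53 in naive cells.

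B4galnt1, the GM2 and GD2 synthase, had the highest level per length of the group in every state, at 260.4 ± 24.6 TPM at day 14, 279 ± 11.9 at day 4, 432 ± 11.1 in effector and 340.0 ± 31.4 in naive libraries. In CPM it had 265, 262 and 332 CPM at day 14, 290.2, 299.8 and 342 CPM at day 4, 469, 447 and 508 CPM in effector cells and 316, 346 and 383 CPM in naive cells. Effector libraries were highest, and day 14 fell below effector (log2 fold change -0.73 ± 0.11, adjusted p = 1.84e-05). A fall at day 14 against naive (log2 fold change -0.28 ± 0.11, adjusted p = 0.0291) was lost without day 14 replicate 1 or 2 or naive replicate 2 or 3, with DESeq2 and with the strand columns summed (adjusted p between 0.0592 and 0.169). Slc26a10 overlaps the gene on the opposite strand, and the unstranded column kept 55.15% of its stranded reads, so the level leaves out reads that both genes claim. B4galnt4 averaged 3.40 ± 3.87 CPM in effector libraries, where replicate 2 held 7.74 CPM. It was called at day 4 against effector (log2 fold change -2.84 ± 0.92, adjusted p = 0.0158), a call lost without day 4 replicate 3 or effector replicate 2 (adjusted p between 0.0655 and 0.149).

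Of the 5 tested fucosyltransferases, Fut4, Fut7, Fut8 and Fut10 rose in at least 1 comparison of a tumour group with naive cells, and Fut11 fell. Of the class, 5 of 8 were tested, of which 3 rose and 1 fell at day 14 against effector and 3 rose and 1 fell against naive cells (median log2 fold changes 1.13 and 2.11). Fut8, which adds core fucose to N-glycans, had 38.2, 39.3 and 34.5 CPM at day 14, 28.8, 27.6 and 25.6 CPM at day 4, 16.6, 19.1 and 15.5 CPM in effector cells and 23.4, 16.8 and 21.2 CPM in naive cells. Tumour libraries were above all others, day 14 above day 4 without overlap though short of the threshold (log2 fold change 0.45 ± 0.14, adjusted p = 0.0517), and day 14 exceeded naive (log2 fold change 0.87 ± 0.15, adjusted p = 7.64e-05). The day 4 call over naive (log2 fold change 0.42 ± 0.15, adjusted p = 0.02) was lost without naive replicate 2 (adjusted p = 0.0914). Fut11 had 15.3, 15.5 and 19.4 CPM at day 14, 17.5, 21.0 and 18.2 CPM at day 4, 29.3, 31.3 and 22.9 CPM in effector cells and 34.7, 32.9 and 31.9 CPM in naive cells. It was lower in all tumour libraries (log2 fold change -0.99 ± 0.15, adjusted p = 3.41e-05 for day 14 against naive).

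Fut7, which completes sialyl Lewis x on selectin ligands, had 3.57, 5.53 and 6.78 CPM at day 14, 0.440, 3.06 and 3.07 CPM at day 4, 2.88, 5.59 and 4.41 CPM in effector cells and 0.961, 0.478 and 0.536 CPM in naive cells. Effector and day 14 overlapped and both lay above naive (log2 fold change 2.68 ± 0.59, adjusted p = 0.00321 for effector; 2.99 ± 0.58, adjusted p = 0.000325 for day 14). Day 4 was uneven, with replicate 1 below the lowest naive library, and its call over naive (log2 fold change 1.73 ± 0.59, adjusted p = 0.0182) was lost without day 4 replicate 2 or 3 or naive replicate 2 or 3 (adjusted p between 0.0584 and 0.0731). Fut4, the other leukocyte alpha-1,3-fucosyltransferase, summed to 85 counts at day 14, 77 at day 4 and 6 in effector libraries, with none in naive libraries, which is at least 22.8-fold higher at day 14 than in naive cells. Fut10 summed to 69 counts at day 14 and 99 at day 4, against 2 in effector and 13 in naive libraries. Its call at day 4 over naive was lost without naive replicate 2 (adjusted p = 0.0614).

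The 24 genes that did not pass the filter had at most 28 counts in a group. Mgat5b, Galnt13, St6galnac1, St8sia5, B3gnt4, Fut1 and Fut2 had no count in any library. B4galnt2, at 0.705 CPM in naive libraries, was the most abundant of them. Reads over B3gnt4 would be ambiguous in the unstranded column, because Diablo lies over it on the opposite strand.

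Within classes, the shares of length-scaled counts describe how the RNA was divided among the genes in each state. Gcnt1 held 81.2% ± 0.818 at day 14, 76.6% ± 2.48 at day 4, 29.2% ± 7.66 in effector and 3.41% ± 1.90 in naive libraries of the Gcnt class. B4galt5 held 49.5% ± 3.24 at day 14, 49.7% ± 3.74 at day 4, 10.9% ± 1.73 in effector and 14.9% ± 3.03 in naive libraries of the B4galt class. Galnt3 held 19.7% ± 1.29 at day 14, 16.9% ± 3.18 at day 4, 1.27% ± 0.792 in effector and 0.0593% ± 0.0149 in naive libraries of the Galnt class. In each of these 3 classes the tumour groups did not overlap the other groups.

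St3gal1 held 30.0% ± 3.16 at day 14, 47.5% ± 4.19 at day 4, 46.9% ± 12.1 in effector and 75.2% ± 1.35 in naive libraries of the alpha-2,3 class. Mgat5 held 17.9% ± 2.59 at day 14, 36.3% ± 1.47 at day 4, 9.24% ± 1.25 in effector and 18.02% ± 3.22 in naive libraries of the Mgat class, with day 4 apart from the rest. The enzymes that add alpha-2,6-sialic acid to GalNAc summed to 47.2 ± 6.88 TPM at day 14, 43.0 ± 3.04 at day 4, 21.5 ± 4.90 in effector cells and 14.8 ± 3.87 in naive cells. That sum includes St6galnac2, whose counts are in doubt. The Gcnt class summed to 22.4 ± 3.89 TPM at day 14, 22.9 ± 3.76 at day 4, 2.57 ± 0.724 in effector cells and 6.64 ± 1.39 in naive cells. These values are descriptions with no test.

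**Figure D3:**
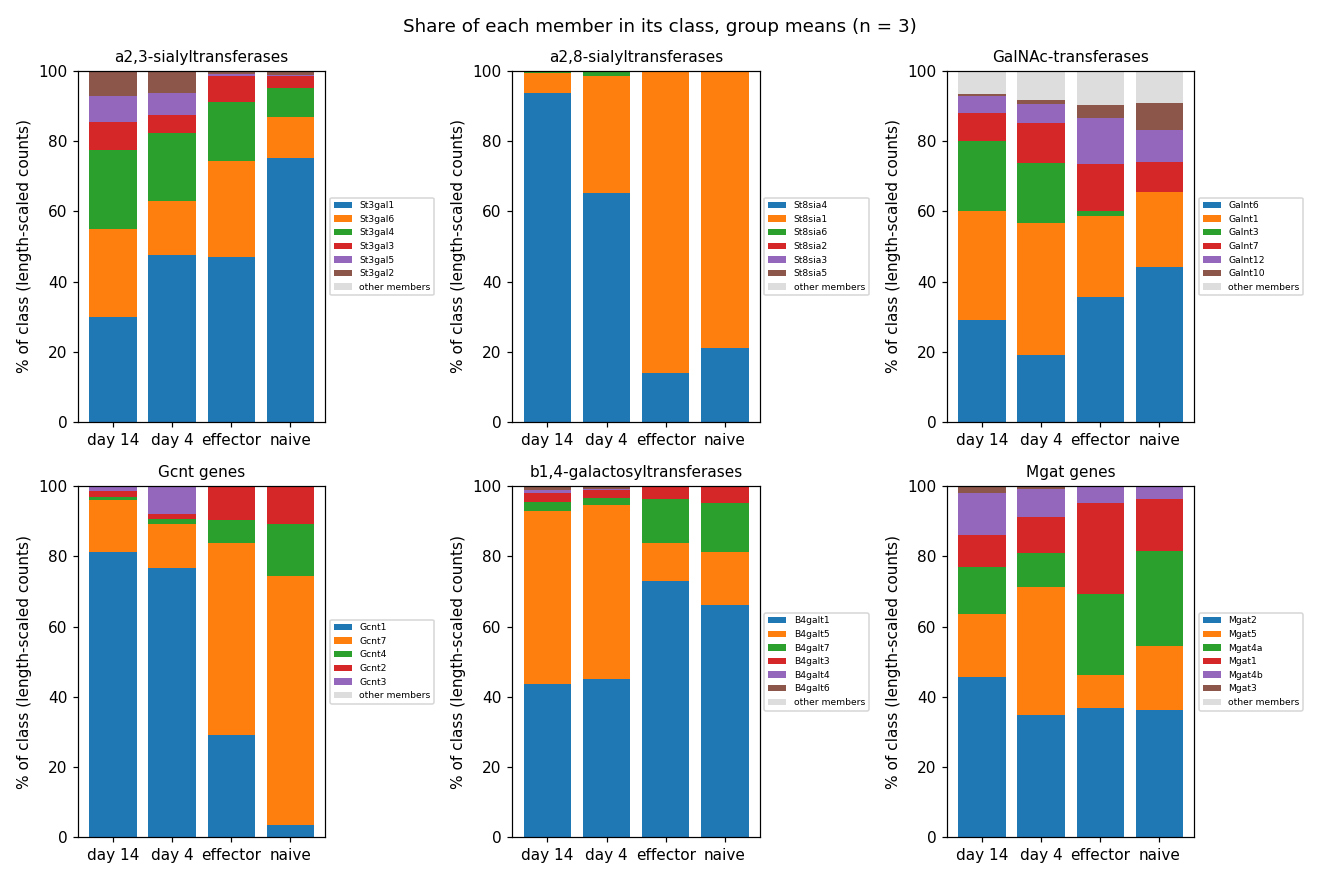
Share of each gene in the summed length-scaled counts of its class, as group means of 3 libraries, for 6 classes. At day 14 and day 4 St8sia4 and Gcnt1 hold the largest shares of their classes, which St8sia1 and Gcnt7 hold in effector and naive cells, and B4galt5 and Galnt3 have wider shares at day 14 and day 4.

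Day 14 against day 4 asks whether cells that stayed longer in the tumour differ. Of the 7 genes called, Galnt6 and B4galt4 were higher at day 14, and St8sia1, Galnt14, Mgat5, St3gal1 and St6gal1 were lower. Galnt6, St8sia1, Galnt14, Mgat5 and St3gal1 stayed called in every alternative that was run, while St6gal1 and B4galt4 did not, as given above. St8sia1 differed by -2.91 ± 0.26, adjusted p = 4.66e-05 on the log2 scale and Galnt14 by -2.45 ± 0.57, adjusted p = 0.0103. Most of the genes that set the tumour groups apart from effector and naive cells were not called between the time points, among them Gcnt1, B4galt5 and St6galnac3.

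**Figure D4:**
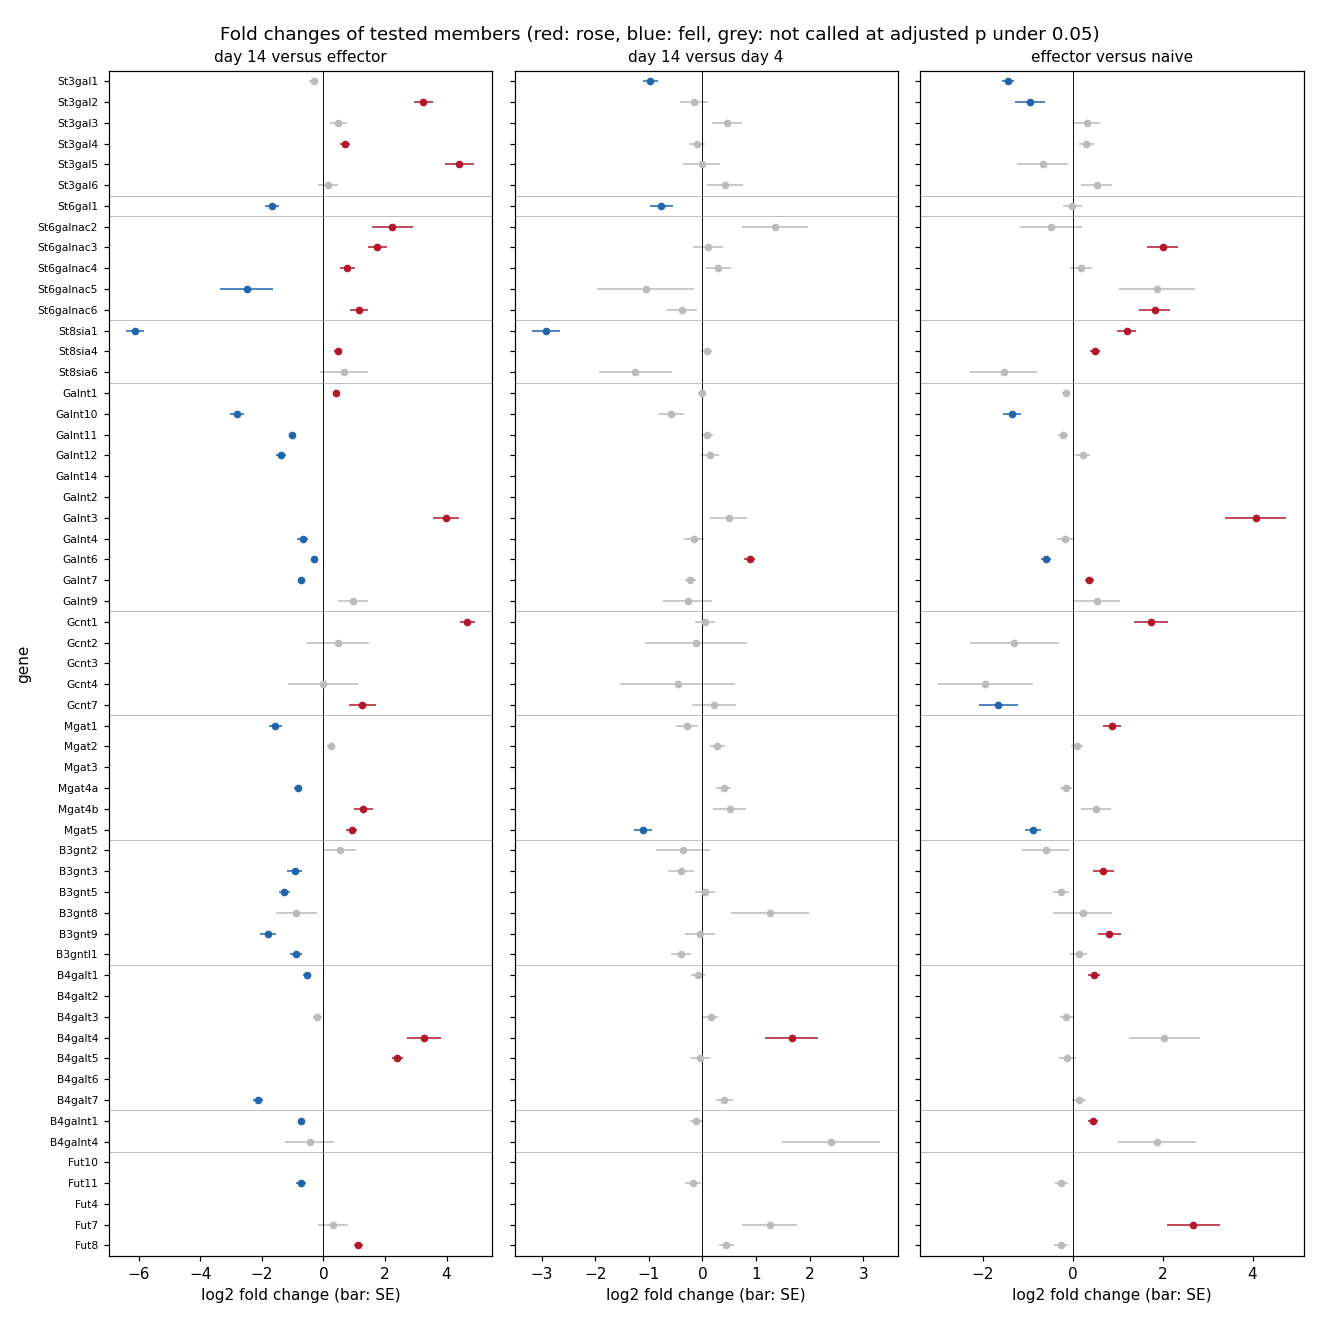
Log2 fold change (points) with SE (bars) of tested genes in 3 comparisons, coloured by call at an adjusted p under 0.05. Galnt14, Galnt2, Gcnt3, Mgat3, B4galt2, B4galt6, Fut10 and Fut4, with 3 or fewer counts in a group, are left out. Day 14 against effector holds many calls in both directions, and day 14 against day 4 holds few.

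Genes of sugar donors and sialic acid handling were read beside the transferases. The lists below were chosen with earlier results of these data known. Of all genes tested, 33.6% were higher and 28.5% lower at day 14 against naive, and 32.6% higher and 28.4% lower against effector, which is the background of each list count. Of 11 tested genes of sialic acid supply and release, 3 rose and 5 fell at day 14 against naive, with a median log2 fold change of -0.27 (0.04 over all genes tested). Cmah, which turns CMP-Neu5Ac into CMP-Neu5Gc, had 74.5, 72.9 and 138 CPM at day 14, 162, 194 and 179.9 CPM at day 4, 1161, 953 and 1059.7 CPM in effector cells and 1365, 1233 and 1175 CPM in naive cells. Tumour libraries lay far below the rest (log2 fold change -3.72 ± 0.23, adjusted p = 1.4e-07 for day 14 against naive), and day 14 lay below day 4 (log2 fold change -0.91 ± 0.21, adjusted p = 0.0184).

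Nans, the sialic acid synthase, had 30.0, 39.8 and 42.9 CPM at day 14, 44.8, 45.2 and 44.3 CPM at day 4, 22.9, 24.1 and 16.2 CPM in effector cells and 15.8, 20.9 and 18.5 CPM in naive cells, and rose at day 14 over naive (log2 fold change 1.03 ± 0.17, adjusted p = 6.05e-05). The lysosomal sialidase Neu1 had 23.4, 24.7 and 25.7 CPM at day 14, 23.1, 20.4 and 23.5 CPM at day 4, 59.0, 54.6 and 54.2 CPM in effector cells and 42.6, 38.0 and 48.0 CPM in naive cells, and fell (log2 fold change -0.80 ± 0.12, adjusted p = 2.22e-05). Neu3, the plasma membrane sialidase, had 7.72, 7.88 and 7.27 CPM at day 14, 12.1, 15.7 and 14.1 CPM at day 4, 15.2, 16.4 and 18.8 CPM in effector cells and 12.4, 11.5 and 7.88 CPM in naive cells. It was lower at day 14 than at day 4 without overlap (log2 fold change -0.88 ± 0.20, adjusted p = 0.007).

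Of 19 genes of other nucleotide sugars and Golgi transport, 10 rose and 5 fell at day 14 against naive, with a median of 0.39. Uap1, which makes UDP-GlcNAc, had 70.6, 69.0 and 86.5 CPM at day 14, 92.1, 76.7 and 70.3 CPM at day 4, 13.4, 16.5 and 16.8 CPM in effector cells and 16.6, 15.6 and 15.9 CPM in naive cells (log2 fold change 2.23 ± 0.14, adjusted p = 8.7e-10 for day 14 against naive). Ugp2, which makes UDP-glucose, had 121, 92.7 and 85.5 CPM at day 14, 109.6, 111 and 111 CPM at day 4, 23.5, 23.2 and 27.1 CPM in effector cells and 24.1, 24.3 and 25.3 CPM in naive cells, at 2.02 ± 0.12, adjusted p = 7.35e-10. In both genes tumour libraries formed a separate, higher range. Galk1, galactokinase, rose by 1.21 ± 0.18, adjusted p = 2.8e-05 and Uap1l1, a relative of Uap1, by 1.77 ± 0.34, adjusted p = 0.000414.

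Of 10 genes of core 1 synthesis and N-glycan trimming, 2 rose and 4 fell at day 14 against naive (median -0.0032). Man2a2, an alpha-mannosidase, fell most, at 95.4 ± 7.05 CPM at day 14, 82.4 ± 5.02 at day 4, 255 ± 22.2 in effector and 222 ± 12.9 in naive libraries (log2 fold change -1.22 ± 0.09, adjusted p = 1.1e-08). Man1a fell (log2 fold change -0.49 ± 0.09, adjusted p = 0.000302), while Mogs and Man2a1 rose by 0.27 ± 0.11, adjusted p = 0.0487 and 0.50 ± 0.10, adjusted p = 0.000321.

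Of 7 tested glycolipid genes, 1 rose and 3 fell at day 14 against naive (median -0.09), and none rose and 4 fell against effector. Ugcg, the glucosylceramide synthase, averaged 319 ± 60.0 CPM at day 14, 278 ± 23.3 at day 4, 494 ± 12.4 in effector and 400.2 ± 39.4 in naive libraries (log2 fold change -0.63 ± 0.12, adjusted p = 0.000184 for day 14 against effector). Gm2a, the GM2 activator, was lower at day 14 than in effector cells (log2 fold change -1.10 ± 0.12, adjusted p = 5.96e-07).

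Of 11 carriers and readers of these glycans, 3 rose and 5 fell at day 14 against naive (median -0.12). Against effector, 2 rose and 7 fell (median -0.70). None of the 5 that fell against naive is named here. Cd44, a marker of the tumour sort and so no independent result, averaged 431 ± 19.9 CPM at day 14, 414 ± 13.0 at day 4, 73.8 ± 22.3 in effector and 23.3 ± 4.94 in naive libraries. Galectin-1 (Lgals1) rose at day 14 over naive by 4.10 ± 0.51, adjusted p = 0.000129 and galectin-3 (Lgals3) by 6.32 ± 1.14, adjusted p = 0.000906. PSGL-1 (Selplg), named after its values were seen, had 332, 353 and 342 CPM at day 14, 187, 178 and 189 CPM at day 4, 537, 615 and 520.3 CPM in effector cells and 314, 353 and 373 CPM in naive cells. It was lowest at day 4, and day 14 exceeded day 4 (log2 fold change 0.89 ± 0.09, adjusted p = 6.79e-06) but not naive (log2 fold change -0.02 ± 0.09, adjusted p = 0.867).

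Selectin ligand sulfation had 3 tested genes, of which 2 rose and 1 fell at day 14 against naive. Chst2, a GlcNAc-6-O-sulfotransferase, had 88.6, 76.5 and 109 CPM at day 14, 113, 122 and 123 CPM at day 4, 4.10, 7.40 and 11.5 CPM in effector cells and 0.0739, 0.159 and 0.153 CPM in naive cells. Tumour, effector and naive libraries were in separate ranges (log2 fold change 9.39 ± 0.46, adjusted p = 6.14e-09 for day 14 against naive; 3.58 ± 0.27, adjusted p = 3.33e-07 against effector). The tyrosylprotein sulfotransferases diverged, with Tpst1 up by 1.30 ± 0.28, adjusted p = 0.000694 and Tpst2 down (log2 fold change -0.59 ± 0.10, adjusted p = 0.000103). Tpst2 was higher at day 14 than at day 4 (log2 fold change 1.21 ± 0.11, adjusted p = 2.96e-06), as Selplg was.

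**Figure D5:**
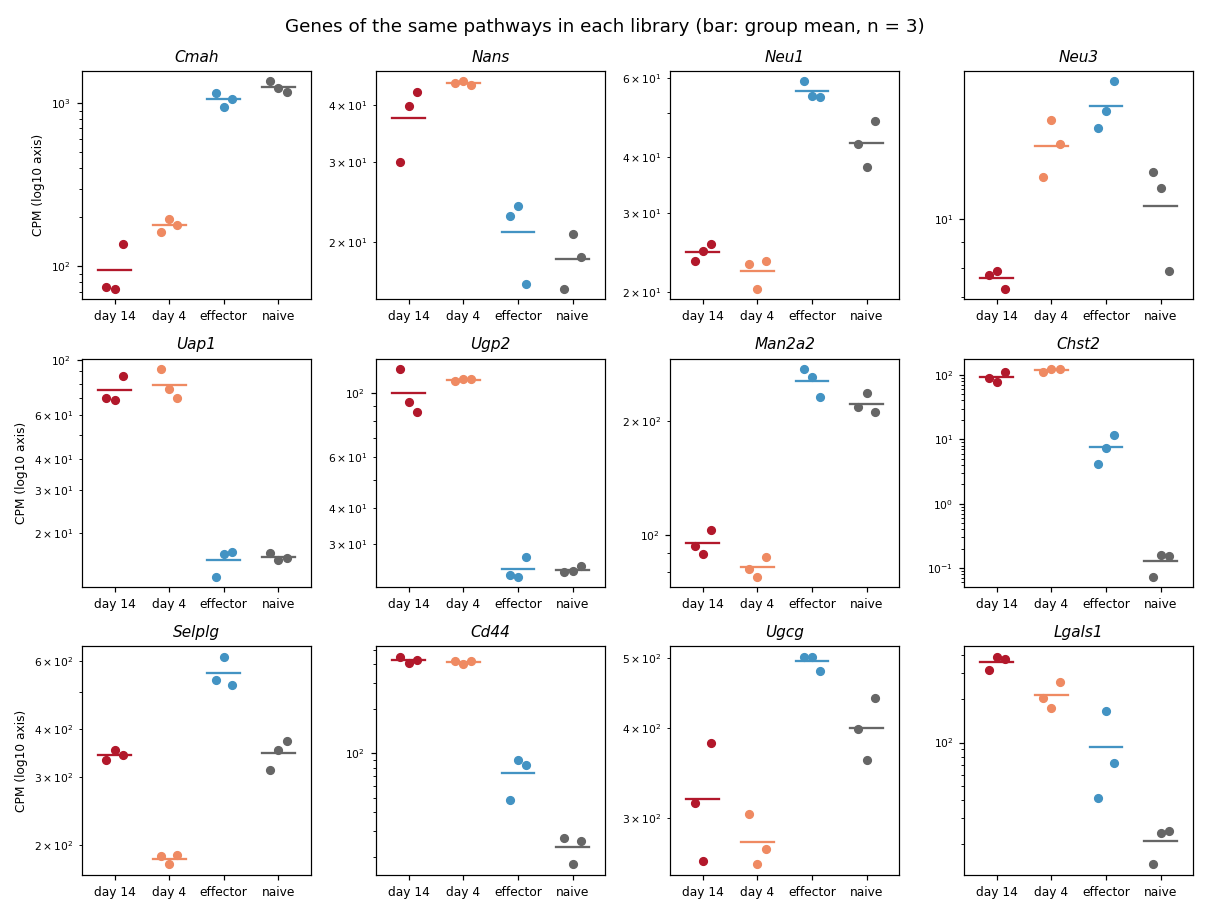
CPM in each library, on a log axis, for 12 genes of the same pathways, with points for libraries and bars for group means (n = 3 libraries a group). Values under 0.05 CPM are drawn at 0.05. Cmah is lower, and Chst2 and Uap1 are higher, in all 6 tumour libraries than in the other 6.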

How the data were processed

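The authors deposited gene counts of 12 bulk RNA-seq libraries, 3 per group, in an unstranded and 2 stranded columns. Per the submitters' processing notes, fastp 0.19.6, STAR 2.6.1b and GRCm38 were used. How reads were counted, and on which annotation release, is not given in the sources used here. The unstranded counts were used, and rows of unmapped, multimapping (5.90 to 7.29% of reads), ambiguous (3.22 to 3.81%) and gene-free reads (20.7 to 30.2%) were left out. Symbols and exonic lengths came from GENCODE M21, which matched 55141 of 55401 identifiers.

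Genes were filtered with filterByExpr and scaled with TMM factors, and all 12 libraries were fitted in one model with edgeR 4.0.16 (R 4.3.3), by quasi-likelihood test with Benjamini-Hochberg adjustment and a threshold of 0.05. SE is the size of the log2 fold change over the root of F. CPM and TPM were computed here from the counts. The steps were tested on simulated data.

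Members with a call in at least 1 comparison and a mean of at least 10 CPM in a group were given with full values, and others were named where called with a log2 fold change of at least 1 in size or where they had no counts. At most 4 called genes of each pathway list, those with the largest change, were named. Some genes that this rule selects are not reported here. St3gal3, St3gal6, Gcnt2, Gcnt4, B3gnt2, B4galnt2 and St8sia2 were named after their values were seen. The members and lists were chosen with earlier results of these data known. Alternatives were library totals, DESeq2 1.42.0 and its size factors, no filter, summed strand columns, the compared groups alone, a replicate block and leaving out each library.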

Additional observations from a re-analysis of the deposited data

How the results depend on the processing

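The number of members called stayed within 1.5 times the reported count in every alternative but one. With no filter on low counts, day 14 against day 4 gave 12 calls in place of 7. Leaving out 1 library gave 5 to 9 calls for day 14 against day 4, 41 to 44 for day 14 against effector, 38 to 45 for day 14 against naive, 37 to 46 for day 4 against effector, 35 to 39 for day 4 against naive, 14 to 19 for effector against naive and 46 to 49 across the 4 groups. Calls not lost in any alternative that tested the gene numbered 5 of 7 for day 14 against day 4 and 39 of 44 for day 14 against effector. They numbered 34 of 44 for day 14 against naive and 34 of 46 for day 4 against effector. Day 4 against naive kept 33 of 39 and effector against naive 12 of 19. Fits of the compared groups alone left some members untested, and their calls are counted here as not lost. Fewer calls may therefore have held in every alternative. For day 14 against effector that fit called 39 members. One called value reversed: with the strand columns summed, B3gnt8 at day 4 against naive came to 0.024 on the log2 scale (adjusted p = 0.951), where Bckdha overlaps on the opposite strand. Labels number the replicates 1 to 3 in each group. Deviations of same-numbered libraries correlated between -0.106 and 0.160 (18 pairs, median 0.0094), and those of other pairs between -0.130 and 0.124. With 3 libraries a group, these values cannot show whether same-numbered libraries share an animal or a batch. The labels do not say. With a replicate block the counts were 6, 44, 43, 43, 39 and 17 in the order above, and 48 across the groups. DESeq2 called 10 members between day 14 and day 4. Low counts limit Mgat3, Galnt14, Galnt2, Gcnt3, B4galt2, B4galt6, Fut4 and Fut10, and unstranded counting limits genes that overlap an opposite-strand gene.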
